A study of Mus musculus with 18 samples.

Results

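The genes described here are 7 of 22208 mouse protein-coding genes: Ung, Trp53bp1, Atm, Lig4, Xrcc4, Xrcc5 and Xrcc6. They were chosen by name for their roles in antibody class switching and in the joining of broken DNA ends. A peak was counted for a gene when it lay within 5 kb of its annotated start or inside its body, and that stretch is called its locus below. The study mapped RAD21 and NIPBL by ChIP-seq in mouse pro-B cells transformed with v-Abl. All cells were JH-deleted, deficient in RAG2, expressed dCas9, a Cas9 made unable to cut that still binds DNA, and carried an Emu-Bcl2 transgene, in which the Igh intronic enhancer drives the survival gene Bcl2. All were kept in 3 uM STI-571, an Abl kinase inhibitor, for 4 days. RAD21 was mapped in dCas9 control cells (2 libraries), in cells with an added Sg1 guide RNA, called block (2 libraries), and, in the Ig2b experiment, in wild-type (3 libraries) and Ig2b-del/del cells (3 libraries). NIPBL was mapped in dCas9 control (2 libraries) and block cells (2 libraries). The labels give the Ig2b wild-type libraries the same genotype as the dCas9 controls. They do not say whether the lines are single clones or whether replicates came from separate cultures, so p-values measure only the spread between these libraries, which may be technical.

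RAD21 is a subunit of cohesin, the ring that holds and extrudes chromatin loops. NIPBL is the factor that loads cohesin and drives extrusion. Cohesin often comes to rest at sites of the DNA-binding protein CTCF, while NIPBL is often found at active promoters. Class switching starts when cytosine in switch regions is turned into uracil. UNG, a uracil glycosylase, removes that uracil. ATM, a kinase, signals the breaks that follow, and 53BP1, the product of Trp53bp1, binds chromatin around them and protects the ends. Ku, a dimer of the products of Xrcc6 and Xrcc5, binds the ends, and DNA ligase IV (Lig4) with its partner XRCC4 seals them.

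The 10 RAD21 lists held 44783 to 82776 peaks and the 4 NIPBL lists 63153 to 123573. RAD21 peaks covered 11.7 to 34.5 Mb and NIPBL peaks 20.4 to 29.9 Mb. Read depth was unknown, so the length covered by called peaks was compared, not read density. The fold of a peak is the authors' own value from MACS2, its enrichment over the background estimate, and is not on 1 scale between lists. It is therefore also given as a percentile within its own list. Peaks within 5 kb of the start stood in every RAD21 list at 7 of 8 early B lineage genes, 1 of 6 T cell, 1 of 6 myeloid and 1 of 5 erythroid genes. In every NIPBL list they stood at 8, 4, 3 and 2 of these. Over all genes 23.4% had such a peak in every RAD21 list and 51.7% in every NIPBL list.

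At the 7 loci the peaks of the 14 lists merged into 93 sites, of which 57 were found in 1 library only. RAD21 peaks alone made up 39 sites, NIPBL peaks alone 36, and both proteins had peaks in 18. Peaks merged into 1 site need not all share a base. In 25 sites every library of at least 1 of the 6 groups had a peak. The sequences below belong to recurring sites that held peaks of 1 protein and none of the other. They are printed on mm9, from 5′ to 3′. RAD21 had a peak in all 10 lists and NIPBL in none at 3 sites inside introns, 37.6 kb and 310.1 kb into Xrcc4 and 6.5 kb into Xrcc5. The capitals mark a match of the CTCF core, which was searched on both strands as CCA, 2 free bases, AG, 2 free bases and GGC. It was found at both Xrcc4 sites and not in 300 bases around the middle of the Xrcc5 site. No mismatch in the fixed bases was allowed. The Xrcc5 sequence printed below holds ccactaggaggt, which differs from the core only in its last base. How often such near matches occur was not counted.
Xrcc4 +37.6 kb, chr13:90191490-90191621, minus strand: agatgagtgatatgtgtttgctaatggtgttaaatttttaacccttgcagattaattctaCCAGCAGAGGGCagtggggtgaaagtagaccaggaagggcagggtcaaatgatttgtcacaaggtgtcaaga
Xrcc4 +310.1 kb, chr13:89918984-89919115, plus strand: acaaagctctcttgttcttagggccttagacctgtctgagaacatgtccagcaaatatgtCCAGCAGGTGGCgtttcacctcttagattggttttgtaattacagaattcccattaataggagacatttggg
Xrcc5 +6.5 kb, chr1:72360364-72360513, plus strand: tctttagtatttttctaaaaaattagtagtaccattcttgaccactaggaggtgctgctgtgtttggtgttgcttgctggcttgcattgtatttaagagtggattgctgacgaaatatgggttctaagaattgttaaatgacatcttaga

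NIPBL had a peak in all 4 lists and RAD21 in none at 2 sites inside Xrcc4 introns, 46.3 kb and 227.3 kb from the start. Here 150 bases of each are shown, because they are near copies of each other.
Xrcc4 +46.3 kb, chr13:90182832-90182981, plus strand: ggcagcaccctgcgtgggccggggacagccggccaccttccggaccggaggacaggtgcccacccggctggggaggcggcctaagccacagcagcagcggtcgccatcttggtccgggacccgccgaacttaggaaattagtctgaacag
Xrcc4 +227.3 kb, chr13:90001639-90001788, plus strand: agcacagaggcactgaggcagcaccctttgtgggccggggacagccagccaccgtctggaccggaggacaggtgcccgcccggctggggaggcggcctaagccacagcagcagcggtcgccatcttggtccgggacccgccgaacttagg
Aligned without gaps, the 300-base windows at both sites shared 264 of 284 bases (93.0%), with a longest identical run of 118 bases. That run occurs 834 times on the autosomes and X of mm9. Of these copies, 655 (78.5%) overlapped a peak in all 4 NIPBL lists, and 0 overlapped a peak in any RAD21 list. Reads from identical copies cannot be assigned to 1 of them, so these NIPBL peaks are uncertain for Xrcc4 itself. How such reads were placed is not given in the sources used here.

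NIPBL was called at all 7 loci in every list, and RAD21 at 4 of 7. Lig4, Xrcc4, Xrcc5 and Xrcc6 had a RAD21 peak in all 10 lists. Ung had one in 9 lists, Atm in 4 and Trp53bp1 in 1. In the 4 RAD21 lists of the dCas9 experiment alone, Ung joined them, making 5 of 7 beside 52.8% of all genes. Over all genes 61.6% had a peak in every NIPBL list and 42.3% in every one of the 10 RAD21 lists, and a long locus can hold a peak more readily than a short one. With peaks of −log10 q of at least 3, Trp53bp1 and Xrcc5 left the NIPBL set, which then held 5 members (35.8% of all genes), and the RAD21 set kept its 4 (30.2%). Within 1 kb of the annotated start Lig4 and Xrcc5 had a RAD21 peak in every list, 2 of 7 beside 9.63% of all genes. NIPBL had one in every list at 6 of 7, beside 45.3%. The member left out was Xrcc6, whose first annotated start lies 28534 bp upstream of its RefSeq start. Within 1 kb of that RefSeq start NIPBL had a peak in all 4 lists and RAD21 in all 10. The share of all genes at RefSeq starts was not computed. At Lig4 the RAD21 peaks covered 2 to 1325 bp within 1 kb of the annotated start (median 155.5). RAD21 covered 2 bp there in dCas9 control 1 and 55 bp in dCas9 block 1. In Ig2b wild-type replicates 2 and 3 it covered 13 and 10 bp, and in Ig2b-del/del replicate 3 it covered 45 bp. In each of these libraries that was the edge of a peak further into the gene, with no peak over the start itself.

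**Figure D1:**
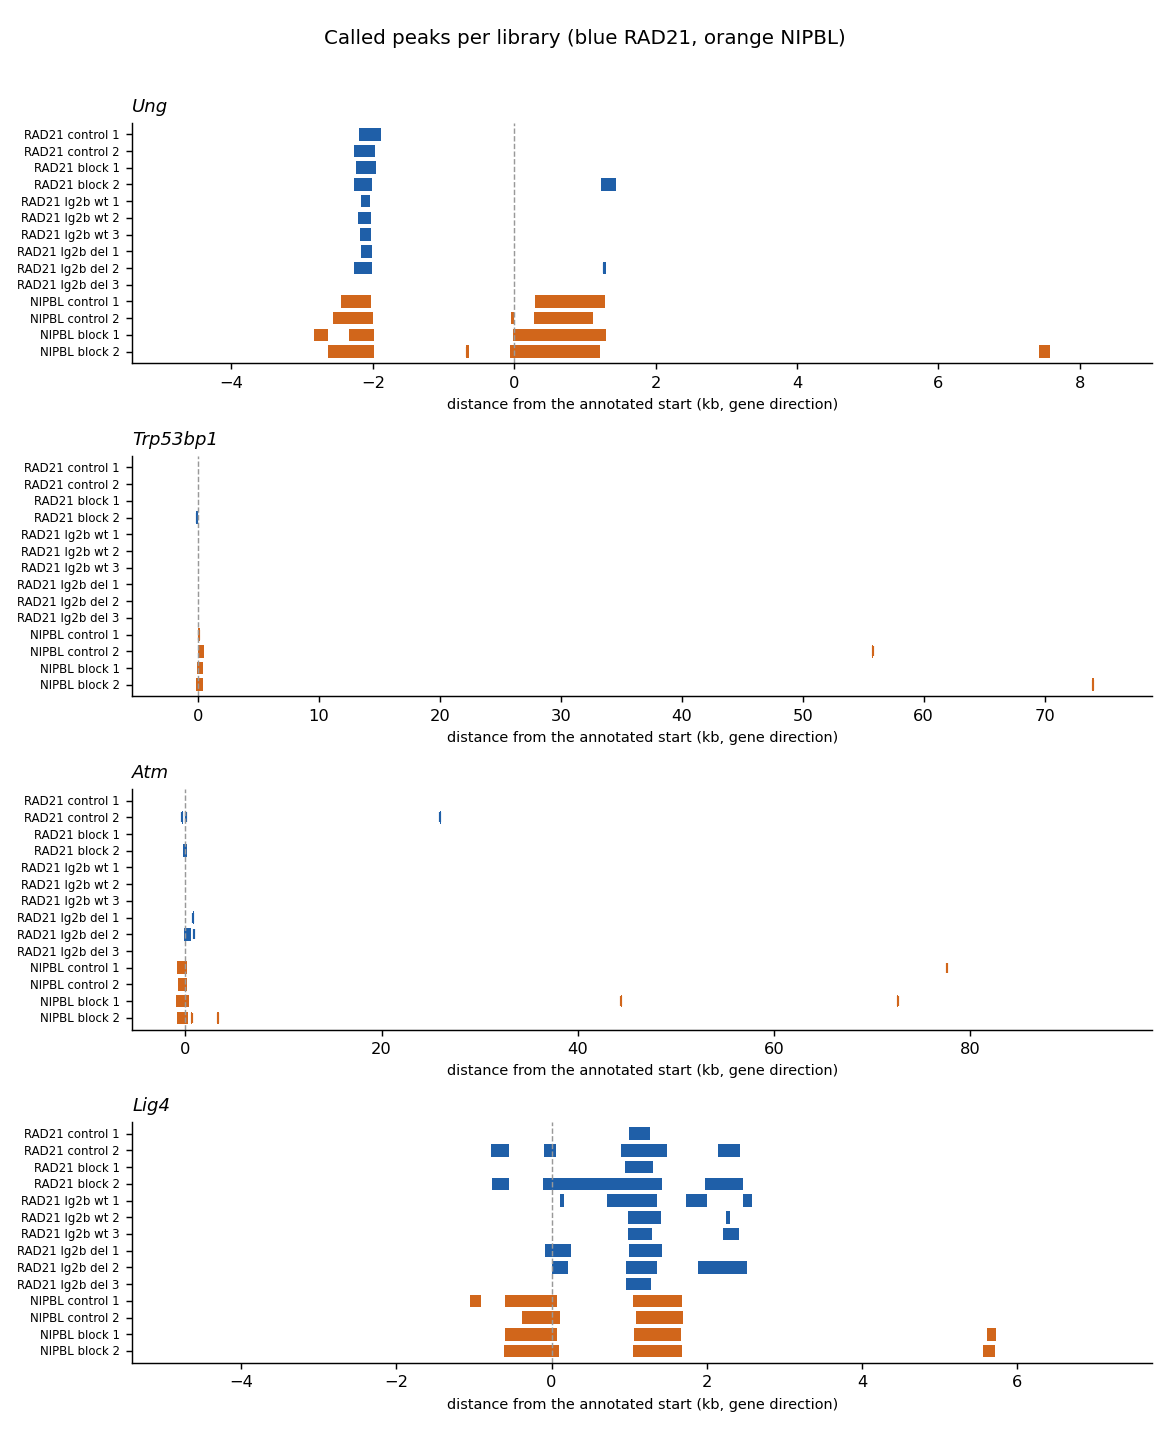
Called peaks at Ung, Trp53bp1, Atm and Lig4. Each row is a library, each bar a peak drawn by its distance from the annotated start in kb along the gene (short peaks also carry a tick), blue for RAD21 and orange for NIPBL. At Trp53bp1 and Atm the 4 NIPBL rows have a bar at the start and most RAD21 rows are empty.

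**Figure D2:**
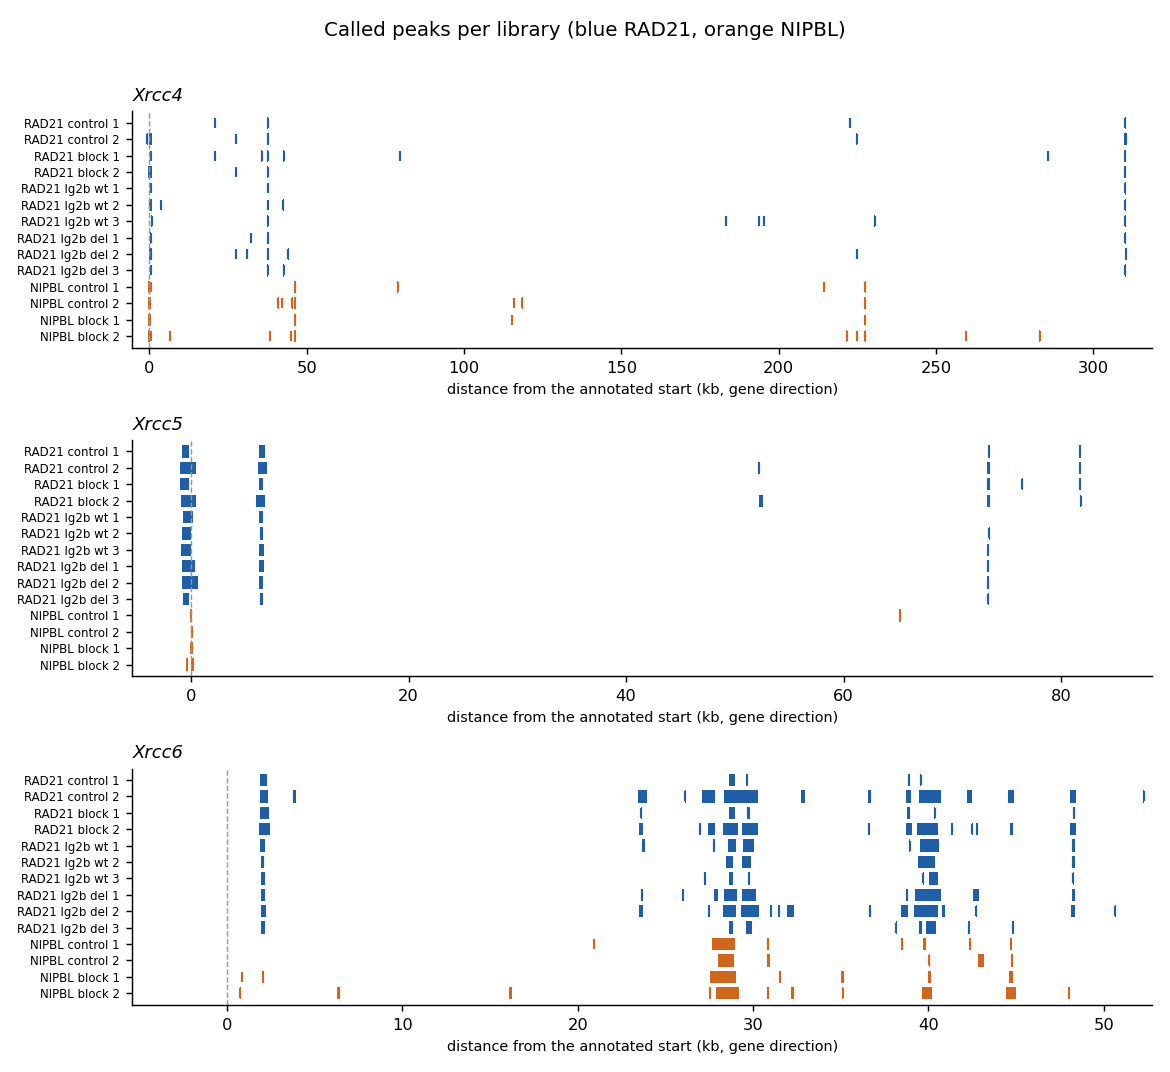
Called peaks at Xrcc4, Xrcc5 and Xrcc6, drawn in the same way. Blue columns with no orange bar stand 37.6 kb and 310.1 kb into Xrcc4 and 6.5 kb into Xrcc5, and the annotated Xrcc6 start at 0 has no recurring peak, while the group near 28.7 kb is in all 14 rows.

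The next question was how the length covered by each protein differed at these loci. The 4 NIPBL and 4 RAD21 libraries of the dCas9 experiment were compared on log2(covered bp + 500), with differences given as NIPBL minus RAD21. NIPBL covered more of Ung and Atm and RAD21 more of Xrcc5. Lig4, Xrcc4 and Xrcc6 passed the test in neither direction, and Trp53bp1 lay below the filter of a mean of 500 covered bp. So 2 of the 6 members tested were higher in NIPBL and 1 in RAD21, beside 15.9% and 9.2% of the 11060 genes tested (1757 and 1017). After quantile normalization between libraries these counts were 2574 and 2614, and the median of all genes moved from 0.17 to 0.00, while Ung, Atm and Xrcc5 kept their direction and call. The median difference was 0.35 over the 6 members and 0.17 over all genes tested. NIPBL lay above RAD21 without overlap of the 4 and 4 libraries in 22.5% of the genes tested, and below it in 11.8%.

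Ung, on chromosome 5 (114580395 to 114589332, plus strand), had 307, 294, 275 and 467 covered bp in the RAD21 control 1, control 2, block 1 and block 2 libraries. The NIPBL libraries in the same order had 1412, 1460, 1848 and 2132 bp. The groups did not overlap, and the difference was 1.40 (SE 0.22, limma adjusted p = 0.00481). NIPBL covered 885 to 1312 bp in its 4 libraries at a site spanning the Ung start. Its strongest peak at this site had a fold of 3.92 to 5.84 (percentiles 85.6 to 92.0). All 4 libraries shared the stretch from 296 to 1119 bp past the start, over another annotated start at 540 bp. Over the 300 bases of the RefSeq promoter NIPBL had a peak in 3 of 4 lists. RAD21 had a peak at the same site in 2 of 10 libraries, both past the first kb. The recurring RAD21 peak, in 9 of 10 libraries, lay -2.3 kb from the start, next to the start of Alkbh2, a repair gene for alkylated DNA that begins 2168 bp away on the other strand. That RAD21 peak was 136 to 307 bp long, and Ig2b-del/del replicate 3 had none. This site was shared, since NIPBL had a peak of 348 to 646 bp at the same place in all 4 libraries. Of the 300 bases around it 64.3% were G or C, and no exact match of the CTCF core was among them.

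Atm, on chromosome 9 (53247254 to 53344845, minus strand), shares its promoter with Npat, an activator of histone genes that starts 307 bp away on the other strand. NIPBL covered 1100, 933, 1394 and 1283 bp of the Atm locus in control 1, control 2, block 1 and block 2, and RAD21 0, 336, 0 and 464 bp. The difference was 1.32 (SE 0.30, limma adjusted p = 0.0167). A single NIPBL peak region over the shared start accounted for 933 to 1292 bp of this, with folds of 4.74 to 8.0 (percentiles 93.1 to 96.8). RAD21 had a peak there in 3 of 10 libraries, whose strongest peaks had folds of 3.23 to 3.98, at or below the percentile 37.4. Both replicate 1 RAD21 libraries of the dCas9 experiment and all 3 Ig2b wild-type libraries had no peak anywhere at Atm, nor did Ig2b-del/del replicate 3. The call at Atm was lost without RAD21 block replicate 1 (difference 1.08, adjusted p = 0.0557) and without any 1 of the 4 NIPBL libraries (adjusted p from 0.0682 to 0.0815).

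Trp53bp1, on chromosome 2 (121019017 to 121097143, minus strand), had 210, 578, 535 and 691 bp under NIPBL peaks in control 1, control 2, block 1 and block 2. RAD21 had 122 bp in block 2 and 0 in the other 9 libraries. Nearly all of it was a single NIPBL peak at the start, 210 to 569 bp long with folds of 3.03 to 5.24 (percentiles 58.1 to 93.1). Fitted without the filter, the difference was 0.90 (SE 0.18, limma adjusted p = 0.0164). Every RAD21 library in this fit but block 2 stood at 0 bp, the lowest value possible, so the SE and p may be too small. Between -2105 bp and 53588 bp from the start lie 3 CTCF core matches, and none was in a peak of either protein.

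Xrcc5, which codes for Ku80, on chromosome 1 (72353995 to 72441526, plus strand), went the other way. RAD21 covered 1470, 2775, 1607 and 3033 bp in control 1, control 2, block 1 and block 2, and NIPBL 336, 172, 259 and 487 bp. The groups did not overlap, and the difference was -1.71 (SE 0.30, limma adjusted p = 0.006). Only 1.6% of the genes tested had a lower value. Upstream of the start and over it, RAD21 covered 551 to 1450 bp in its 10 libraries (median 952.0), and NIPBL 172 to 487 bp (median 221.5). The NIPBL peaks sat on the start, with folds of 3.15 to 4.62, and NIPBL block 2 had a further weak peak upstream. The RAD21 peaks lay over both CTCF cores upstream and reached the start in 7 of 10 libraries. The intronic site at 6.5 kb, printed above, was the strongest RAD21 site of all members. Its folds were 9.62, 16.78, 11.59 and 14.65 in control 1, control 2, block 1 and block 2, and 10.78 to 16.34 in the 6 Ig2b libraries. All 10 lay at or above the percentile 93.5 of their list. Further RAD21 sites lay 73.3 kb into the gene (9 of 10 libraries, not in Ig2b wild-type replicate 1) and 81.8 kb into it. The latter was in all 4 dCas9 libraries and in none of the 6 Ig2b libraries. The dCas9 lists name a control library and the Ig2b lists none, so experiment and peak calling cannot be told apart.

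Xrcc6, which codes for Ku70, on chromosome 15 (81818265 to 81870515, plus strand), had the widest spread. RAD21 covered 986, 6740, 1452 and 5439 bp in control 1, control 2, block 1 and block 2, and NIPBL 1932, 1593, 2375 and 3338 bp. The groups overlapped, with a difference of -0.29 (SE 0.54, limma adjusted p = 0.735). The replicate 1 and replicate 2 RAD21 libraries carry different styles of peak names, and the replicate 2 libraries were high at Xrcc6 in both control and block. The RefSeq start lies 28534 bp downstream of the first annotated start, and both proteins had a peak within 1 kb of it in all 14 libraries. NIPBL covered 887 to 1449 bp at that start with folds of 7.53 to 13.26, in the top of its lists (percentiles 99.3 to 99.7). RAD21 covered 239 to 1514 bp within 1 kb of it, and its strongest peak there had a fold of 5.06 to 8.89 (percentiles 62.0 to 82.1). Over the 300 bases of the promoter itself RAD21 had a peak in 5 of 10 lists, and elsewhere it lay just downstream. A second shared site 40.0 kb from the first start had a peak in all 14 libraries as well. There the peaks merged into a stretch of 1518 bp, and no base lay in the peaks of more than 11 libraries. A RAD21 site at 2.1 kb was in all 10 RAD21 libraries (183 to 625 bp, folds 4.59 to 10.38) and in NIPBL block 1 only. Xrcc6 had 29 sites in all, 11 of them with peaks of both proteins. At the site 48.2 kb from the first start the peaks of the proteins abutted and did not overlap.

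Lig4, on chromosome 8 (9970020 to 9977686, minus strand), starts 21 bp from Abhd13, which is read the other way, and has another annotated start 1363 bp downstream. RAD21 covered 264, 1262, 356 and 2241 bp in control 1, control 2, block 1 and block 2, and NIPBL 1438, 1075, 1393 and 1501 bp. The groups overlapped, with a difference of 0.47 (SE 0.42, limma adjusted p = 0.452). NIPBL had a peak at each start in all 4 libraries. At the downstream start its folds were 8.91, 8.03, 13.16 and 10.9, among the highest of each list (percentiles 99.3 to 99.8). RAD21 had its strongest peak over or just before the downstream start in all 10 libraries, with folds of 6.33 to 13.98 (percentiles 78.5 to 92.5). The 150 bases before that downstream start, from RefSeq (GRCm38.p6, matched once and exactly in mm9), are shown because peaks of both proteins meet there. Capitals mark a match of the ETS core CCGGAAG on either strand, which 8.86% of 32851 RefSeq promoters of 300 bases hold.
Lig4 downstream start, chr8:9976312-9976461, minus strand: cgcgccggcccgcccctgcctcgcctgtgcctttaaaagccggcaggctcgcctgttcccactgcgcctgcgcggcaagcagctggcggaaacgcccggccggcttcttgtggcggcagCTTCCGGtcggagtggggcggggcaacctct
NIPBL covered the whole 300-base promoter in all 4 libraries, and RAD21 138 to 300 bases of it in its 10.

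Xrcc4, on chromosome 13 (89913632 to 90229213, minus strand), starts 154 bp from Tmem167 on the other strand. RAD21 covered 882, 2703, 2076 and 2142 bp of its long locus in control 1, control 2, block 1 and block 2, and NIPBL 1842, 3064, 1759 and 2490 bp. The groups overlapped, with a difference of 0.23 (SE 0.33, limma adjusted p = 0.652). These similar sums came from different places. The NIPBL sums include 561 to 735 bp at 46.3 kb and 51 to 481 bp at 227.3 kb, the repeat copies described above. Those peaks are uncertain for Xrcc4, and the difference without them was not tested. At the shared start NIPBL covered 738 to 1020 bp, and its strongest peak had a fold of 6.09 to 9.12 (percentiles 95.7 to 99.0). At the same site RAD21 had a weak peak in 9 of 10 libraries, with folds of 3.33 to 4.5. Over the 300 bases of the RefSeq promoter it had a peak in 4 of 10 lists. In the other libraries with a peak it lay further into the gene. At the intronic site 37.6 kb from the start the RAD21 folds were 5.61 to 10.75, and at 310.1 kb they were 4.06 to 9.18, with 0 of 4 NIPBL lists at either. Of the 37 sites at Xrcc4, 1 held peaks of both proteins, the start.

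At the starts alone the order of the members changed. Within 1 kb either side of the RefSeq starts, windows of equal length, the median NIPBL coverage was 1323.0 bp at Xrcc6, 1099.5 bp at Atm, 942.5 bp at Ung, 853.5 bp at Xrcc4, 687.0 and 615.0 bp at the first and the downstream start of Lig4, 531.0 bp at Trp53bp1 and 221.5 bp at Xrcc5. Neighbours in that order overlapped in their ranges over libraries, except that the downstream Lig4 start (597 to 632 bp) lay above Trp53bp1 (210 to 569 bp). For RAD21 the median over 10 libraries was 952.0 bp at Xrcc5, 612.5 bp at Xrcc6, 475.5 bp at the downstream start of Lig4, 307.5 bp at Xrcc4, 161.5 bp at the first start of Lig4 and 0 at Ung, Atm and Trp53bp1. Xrcc5 was thus last of the members in NIPBL and first in RAD21. The RAD21 ranges of neighbours overlapped, as at Xrcc5 (551 to 1450 bp) and Xrcc6 (239 to 1514 bp).

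The test was repeated on 1 kb either side of the annotated starts with no filter, a setting chosen after the data were seen because Trp53bp1 and others lay below the filter. Of 15551 genes tested, 29.9% were higher in NIPBL and 2.87% in RAD21. Ung (1.48, SE 0.08, adjusted p = 0.000399), Atm (1.31, SE 0.24, adjusted p = 0.011) and Trp53bp1 (0.84, SE 0.15, adjusted p = 0.00955) were higher in NIPBL by limma. Here RAD21 covered 0 bp at Ung in every dCas9 library, the lowest value possible, so these libraries added no spread. At Trp53bp1 RAD21 covered 0 bp in all of them but block 2 (122 bp). The SE and p of Ung and Trp53bp1 may therefore be too small. Xrcc5 was higher in RAD21, with a difference of -0.97 (SE 0.23, adjusted p = 0.0267), and 0.7% of the genes tested lay below it. Lig4 and Xrcc4 were at 0.44 and 0.46, not past the threshold (adjusted p of 0.465 and 0.464). In this window 3 of 7 members were thus higher in NIPBL and 1 in RAD21, and their median of 0.46 was near that of all genes tested, 0.43.

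**Figure D3:**
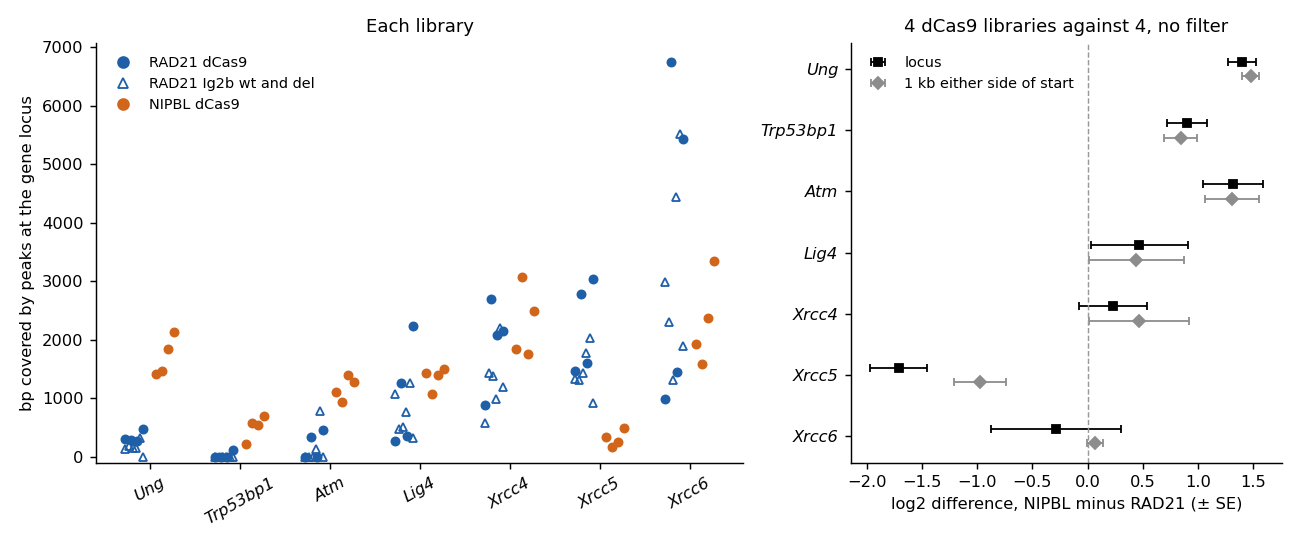
Left, bp covered by called peaks at each locus, one point per library (blue circles RAD21 dCas9, open blue triangles RAD21 Ig2b, orange circles NIPBL). Right, the log2 difference of NIPBL minus RAD21 over 4 and 4 dCas9 libraries fitted with no filter, with standard errors, for the whole locus (black squares) and for 1 kb either side of the annotated start (grey diamonds). Ung, Trp53bp1 and Atm lie right of 0 and Xrcc5 left of it in both.

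Exact matches of the CTCF core were then counted at these loci. The search allowed no mismatch in the fixed bases, so a site without a match may still hold a CTCF-like sequence. The 7 loci held 39 matches: 12 at Atm, 9 at Xrcc5, 7 at Xrcc6, 4 at Xrcc4, 3 each at Trp53bp1 and Lig4 and 1 at Ung. None of the 12 at Atm lay in a peak of either protein. Of all 39, 10 lay in a peak of at least 1 RAD21 list, 4 in all 10 RAD21 lists and 1 in any NIPBL list. The 4 were the 2 Xrcc4 sites printed above and 2 matches just upstream of Xrcc5, -701 and -369 bp from the start. Genome-wide, 39.5% of 25629 regions with a RAD21 peak in all 10 lists held a core in their central 300 bases, against 3.91% of 23777 regions with a NIPBL peak in all 4 lists. Their mean G and C content was 46.6% and 62.4%. A match is a description of the sequence and does not show that CTCF was bound.

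Most matches at the 7 loci were the same 12 letters, and some of these stood in a repeated context, with and without RAD21. CCAGAAGAGGGC made up 21 of the 39 matches, and 13 of these followed the same 10 bases (cttcagacac) at 1 base of distance. Both matches upstream of Xrcc5 and one inside Atm are shown to compare, with the core in capitals. The first Xrcc5 match and the Atm match carry those 10 bases, and the other Xrcc5 match does not.
Xrcc5 -0.7 kb, chr1:72353228-72353359, plus strand, in all 10 RAD21 lists: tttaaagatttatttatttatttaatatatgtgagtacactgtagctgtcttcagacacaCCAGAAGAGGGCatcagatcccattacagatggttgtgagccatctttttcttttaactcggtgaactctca
Xrcc5 -0.4 kb, chr1:72353560-72353691, plus strand, in all 10 RAD21 lists: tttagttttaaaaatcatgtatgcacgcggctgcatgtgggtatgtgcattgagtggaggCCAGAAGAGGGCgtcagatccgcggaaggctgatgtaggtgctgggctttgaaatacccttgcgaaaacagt
Atm +10.0 kb, chr9:53334799-53334930, plus strand, in 0 of 10 RAD21 lists: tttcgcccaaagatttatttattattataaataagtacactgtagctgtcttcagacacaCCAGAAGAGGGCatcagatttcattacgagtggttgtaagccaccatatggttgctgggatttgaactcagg
The 12 letters occur 50303 times in mm9 on the chromosomes used, and 4.63% of these lay in a peak of all 10 RAD21 lists. With the 10 bases before them they occur 19442 times, and 0.592% did. The broad RAD21 peak upstream of Xrcc5 covers both of its matches, so the peak cannot be given to 1 of them. At Xrcc5 the match 73.3 kb into the gene lay in 8 RAD21 lists, and at Xrcc6 those 23596, 38823 and 48266 bp from the first start lay in 5, 6 and 8.

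**Figure D4:**
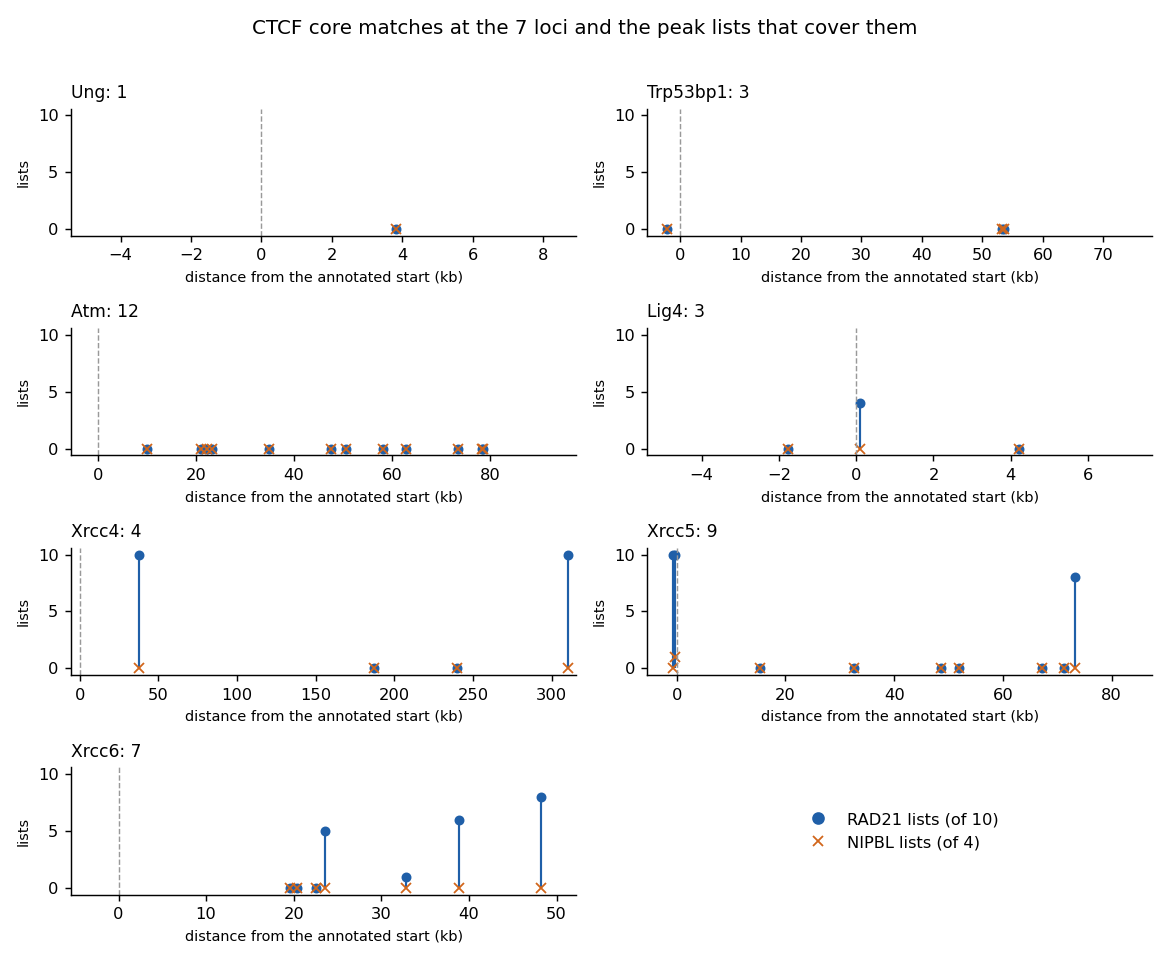
CTCF core matches at the 7 loci by distance from the annotated start in kb. The height of each blue point is the number of RAD21 lists (of 10) and of each orange cross the number of NIPBL lists (of 4) with a peak over the whole match, and the number of matches stands beside each gene name. Matches in all 10 RAD21 lists are seen at Xrcc4 and Xrcc5 only.

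Within each list, the rank of the peaks at the starts was as follows. At the Lig4, Xrcc6, Xrcc4 and Atm starts the strongest NIPBL peak of every library was at or above the percentile 93.1. The RAD21 peaks of the same sites lay between 78.5 and 92.5 at Lig4 and between 62.0 and 82.1 at Xrcc6. They lay at or below 58.7 at Xrcc4 and 37.4 at Atm. The highest at Xrcc4, in Ig2b wild-type replicate 1, lay 456 to 516 bp into the gene. At the Xrcc5 start the ranges overlapped, with 63.3 to 89.0 in NIPBL and 56.9 to 76.1 in RAD21. The lists differ in length and in their lowest folds, so a percentile orders peaks within a list and shows no difference in strength between the proteins. In the dCas9 experiment both proteins came from the same kind of cells but by different antibodies, so differences in antibody cannot be told apart from differences in occupancy.

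**Figure D5:**
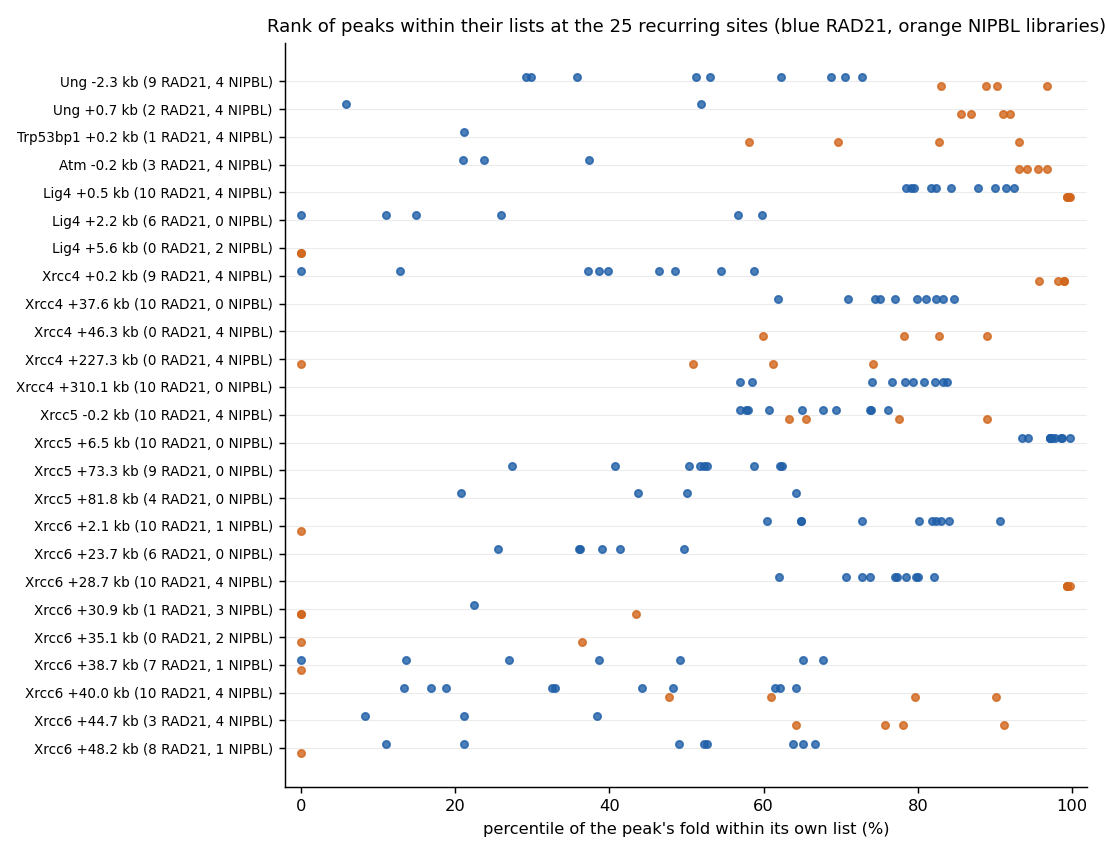
The percentile of the authors' fold within its own peak list at the 25 recurring sites, one point per library with a peak (blue RAD21, orange NIPBL). Row names give the distance of the site's middle from the annotated start and the number of libraries with a peak. Orange points stand at the right edge at the Lig4, Xrcc4 and Xrcc6 starts, and blue ones at Xrcc5 +6.5 kb.

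The Sg1 guide was then compared with its dCas9 control at these loci. In RAD21, limma called 0 of the 4 members tested and 0 of 9355 genes in either direction (0% in each, and 0 at an unadjusted p under 0.05). Same-numbered libraries deviated together here (correlation 0.79), and this fit does not allow for that. With the replicate number in the limma model, 178 genes were higher and 10 lower at an unadjusted p under 0.05, and 0 were called. So few calls do not show that the guide left RAD21 unchanged. The members' differences of block minus control ran from 0.05 at Xrcc6 (SE 0.94) to 0.40 at Lig4 (SE 0.76), with a median of 0.21 beside 0.13 for all genes. Within replicate numbers, which share a style of peak names in RAD21, block minus control at Lig4 was 0.16 and 0.64, at Xrcc5 0.10 and 0.11, at Xrcc4 0.90 and -0.28, and at Xrcc6 0.39 and -0.29. Xrcc4 and Xrcc6 thus moved in opposite directions in the 2 numbers. Ung, Atm and Trp53bp1 had at most 467 covered bp in any of these libraries and lay below the filter.

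In NIPBL, limma called 0 of 6 members tested and 0 of 11423 genes (0% in each direction). At an unadjusted p under 0.05, 1152 genes were higher and 64 lower in block, but 487 and 373 after quantile normalization and 384 and 398 without block replicate 2. Xrcc6 had 1932 and 1593 bp in control and 2375 and 3338 bp in block (0.56, SE 0.21, adjusted p = 0.469). Ung had 1412 and 1460 bp in control and 1848 and 2132 bp in block (0.36, SE 0.16, adjusted p = 0.485). At Atm 1100 and 933 bp faced 1394 and 1283 bp (0.28, SE 0.16, adjusted p = 0.548). These 3 lay higher in block without overlap, as did 42.3% of the genes tested, and they did not pass the test. Xrcc4 was the only member tested with less in block, by -0.15 (SE 0.28). The median over the members was 0.31, beside 0.19 for all genes.

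In the Ig2b experiment, deletion was compared with wild type in RAD21. Limma called 0 of 4 members and 0 of 5662 genes (0% in each direction), with 520 higher and 12 lower at an unadjusted p under 0.05, but 347 and 251 after quantile normalization. Xrcc6 had 2992, 2302 and 1316 bp in wild type and 4431, 5515 and 1892 bp in deleted cells (0.67, SE 0.40, limma adjusted p = 0.493). Xrcc5 had 1324, 1304 and 1427 bp in wild type and 1769, 2023 and 926 bp in deleted cells (0.12, SE 0.25). Lig4 was at 0.08 and Xrcc4 at 0.26. The groups overlapped at all 4. Their median of 0.19 lay below that of all genes, 0.32. Deleted replicate 2 had the longest RAD21 coverage of these 6 libraries at each of the 4 loci, and its list the most peaks (75679). Without it the differences were -0.18 at Lig4, 0.005 at Xrcc4, -0.041 at Xrcc5 and 0.40 at Xrcc6. It was also the only Ig2b library with a peak over the Atm start.

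The other genes of the pathway, 31 in all, were counted for context. In the comparison of proteins 27 passed the filter, with a median of 0.11 beside 0.17 for all genes tested. Of the 27, 4 were higher in NIPBL and 1 in RAD21, beside 15.9% and 9.2% of all genes tested. Those higher in NIPBL included Poll (1.15, adjusted p = 0.0296), a gap-filling polymerase, and Paxip1 (1.10, adjusted p = 0.0136) and Rif1 (0.95, adjusted p = 0.0345), which act in the break response. By list, 2 of 11 break response and 1 of 5 end joining genes tested were higher in NIPBL, and 0 of 5 alternative end joining genes were called (0 higher and 1 lower at an unadjusted p under 0.05). A peak in every list was found for 23 of the 31 in RAD21 and 29 in NIPBL, beside 42.3% and 61.6% of all genes. Nhej1, an XRCC4-like end-joining factor, had one in every RAD21 list and not in every NIPBL list. For the Sg1 guide and the Ig2b deletion, 0 of the pathway genes were called by limma. At an unadjusted p under 0.05 there were 0 of 23 tested for the guide in RAD21 and 3 of 29 for the guide in NIPBL. For the deletion there were 2 of 18, and all of these were higher. Over all genes tested the counts were 0 of 9355, 1152 higher and 64 lower of 11423, and 520 higher and 12 lower of 5662. The highest and lowest differences were Mre11a and Nbn (0.51 and -0.29) for the guide in RAD21, Poll and Apex2 (0.82 and -0.11) for the guide in NIPBL, and Dntt and Prkdc (0.76 and -0.06) for the deletion.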

How the data were processed

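RAD21 and NIPBL ChIP-seq peaks were taken from 14 deposited lists, 1 per immunoprecipitated library; the 4 inputs were not analysed here. The submitters' processing notes name mm9, Bowtie2 2.2.8, SAMtools 1.8 and MACS2 (version not given in the sources used here). Peaks had been called per library, as the deposited lists show. A peak's fold, a ratio computed by the authors, served here for ranks and descriptions alone. The q that the authors deposited as −log10 values served as a filter, and their −log10 p was not used. Peak names show a control library for the dCas9 experiment, NIPBL included, and none for Ig2b.

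Covered bp at a locus was the union of a library's peaks, on mm9 with GENCODE vM1 (22208 protein-coding genes, 19 autosomes and X). Log2(covered bp + 500) was tested with limma 3.58.1 in R 4.3.3 over genes with a mean of at least 500 bp (two-sided, Benjamini-Hochberg over all genes tested, adjusted p under 0.05), after a check on simulated data. Sites were peaks of all lists merged where they overlapped or abutted. All members were named, and sites in every library of a group described. Python 3.11.15, numpy 2.4.6, pandas 2.3.3 and matplotlib 3.10.9 did the rest. Alternatives were the replicate block, windows of 5 and 1 kb at the start, no filter, 100 bp added, peaks of −log10 q of at least 3, lists cut to equal length, quantile normalization, control libraries only, all 10 RAD21 libraries, and leaving out each library. The members and lists were chosen with earlier results of these data known. Read depth is unknown, so no counting interval was given. Some genes of the pathway list are not reported here by name.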

Additional observations from a re-analysis of the deposited data

How the results depend on the processing

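Between NIPBL and RAD21, limma called 2774 genes. It called 5188 after quantile normalization, 5286 with no filter, 1659 within 1 kb of the start, 5095 there with no filter (chosen after seeing the data) and 849 to 4542 when any 1 library was left out. With control libraries only it called 0 (986 higher and 663 lower at an unadjusted p under 0.05), where Ung (1.27, adjusted p = 0.264), Atm (1.23, adjusted p = 0.301) and Xrcc5 (-1.76, adjusted p = 0.177) kept their direction with 2 libraries against 2. Ung and Xrcc5 kept their call when any 1 library was left out, and Atm lost it in 5 of 8 such fits. For Ig2b deletion the count of 0 became 32 at −log10 q of at least 3 (32 higher, 0 lower), 10 with lists matched in length (0 higher, 10 lower), 53 after quantile normalization (14 higher, 39 lower), and 0 to 1 when a library was left out. Both Sg1 comparisons stayed at 0 in every setting run. Members with a RAD21 peak in every list fell from 4 to 2 within 1 kb of the annotated start, while the share of all genes fell from 42.3% to 9.63%. Xrcc6, which left this set, had a RAD21 peak within 1 kb of its RefSeq start in all 10 lists.

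Members that passed no test changed sign as follows, and the cause was not tested. For NIPBL minus RAD21, Xrcc4 was -0.093 at −log10 q of at least 3 and Xrcc6 0.07 within 1 kb with no filter, and leaving out a library gave -0.077 to 0.53 and -0.86 to 0.28. For block minus control in RAD21, Xrcc5 was -0.013 at −log10 q of at least 3 and -0.10 after quantile normalization, and Xrcc6 -0.071 with lists matched in length and -0.11 after quantile normalization. Leaving out a library there gave -0.44 to 1.24 at Lig4, -0.30 to 0.92 at Xrcc4, -0.27 to 0.48 at Xrcc5 and -1.09 to 1.196 at Xrcc6. For block minus control in NIPBL, Lig4 was -0.045 after quantile normalization, and Xrcc4 0.081 within 5 kb and within 1 kb, with and without the filter, and -0.46 to 0.15 when a library was left out. For Ig2b deletion after quantile normalization Lig4 was -0.21, Xrcc4 -0.10 and Xrcc5 -0.285, and leaving out a library gave -0.18 to 0.365, -0.01 to 0.44 and -0.041 to 0.37.

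Replicate numbers are shared between groups, but nothing in the labels says that they mark a shared batch. Deviations of same-numbered libraries correlated across genes at 0.79 in RAD21 dCas9, 0.03 in NIPBL and 0.02 to 0.22 in Ig2b. With the replicate block 3306 genes were called between NIPBL and RAD21 and 0 in each other comparison, and no member's call changed.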
